A study of Mus musculus with 8 samples.

Results

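The 8 genes Wt1, Lhx9, Emx2, Cited2, Six4, Map3k4, Dmrt1 and Fgf9, which act in the formation of the genital ridge and in the specification of the testis, were followed through RNA-sequencing libraries of mouse embryonic stem cells (ESCs), Sertoli cell-like cells (SCLCs) and germ cell-like cells. They were chosen by name for these roles, and are 8 of the 46078 gene IDs counted. All cells were XY and of the C57BL/6 strain, and each of the 4 groups had 2 libraries, labelled as biological duplicates. tcESCs (genotype XY;tesco-cfp) are an ES cell line derived from male embryos that carry CFP under the testis enhancer core of Sox9. They received no differentiation treatment, and ESCs were kept in medium with LIF and the inhibitors PD0325901 and CHIR99021. tc;Sf1ESCs (XY;tesco-cfp;Sf1) are a single G418-selected clone of that line with an Sf1 transgene, Sf1 being the protein of the gene Nr5a1, so that any property of the clone and the effect of the transgene cannot be told apart. SCLCs are CFP-positive cells sorted from tc;Sf1ESC cultures at day 12, after CHIR99021 and TTNPB and then CHIR99021, BMP7 and FGF9 protein, and carry the same transgenes as tc;Sf1ESCs. tod-PGCLCs (XY;Prdm1-gfp) are GFP-positive primordial germ cell-like cells sorted at day 6 from testicular organoids in which epiblast-like cells were cultured with tc;Sf1ESC-derived testicular cells. They come from another ES line without the tesco-cfp or Sf1 transgene, and no ESC library of that line was analysed here, so that line and cell type cannot be told apart in their comparisons.

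In the embryo, the genital ridge thickens from the coelomic epithelium on the surface of the mesonephros, and it is the shared origin of testis and ovary. Emx2, Lhx9 and Wt1 are needed for this epithelium to grow, and Lhx9, Wt1 and Cited2 act on the level of Nr5a1. Six4 acts upstream of Nr5a1 and of the Sry regulator Zfpm2. Map3k4 is a kinase that signals through p38 and, with Gadd45g, is needed for Sry to be expressed in time. After Sry and Sox9 are on, Fgf9 signals through Fgfr2 to keep the cells on the male side, and Dmrt1 later maintains the Sertoli cell fate and acts in germ cells as well. Testis differentiation thus runs from ridge formation through Sry activation to the steps downstream of Sry, and the genes are described in that order.

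The 8 libraries held 25411033 to 30680191 counts on genes, and 3 counts in a library correspond to 0.0978 to 0.118 CPM (counts as a share of the library's total, scaled to a common size), taken here as the lower limit of measurement. Replicates differed by more than counting error in every group, most in SCLCs, where the chi-square per degree of freedom was 30.7, against 1.44 to 9.86 in the other groups. Nr5a1 had 1 and 0 counts in tcESCs, 52 and 30 in tc;Sf1ESCs, 341 and 535 in SCLCs, and 6 and 5 in tod-PGCLCs, with the most counts in the groups whose labels name the transgene. The 11 Sertoli markers summed to 487 and 521 CPM in SCLCs, against 12.2 to 14.6 CPM in ESCs, of which Gata4, a gene of many mesodermal and endodermal tissues, alone gave 415 and 431 CPM. In SCLCs over tc;Sf1ESCs 5 of the 8 tested were called higher and none lower, where 24.1% of all genes tested were called higher and 18.1% lower. These 5 were Gata4, Cldn11, Vnn1, Nr5a1, whose counts include the transgene, and Sox9, whose enhancer drives the CFP of the sort. Cldn11 and Sox9 passed the filter on low counts only through their SCLC libraries, so that the count is a description. Of the defining markers among them, Fshr was at 0 in both SCLC libraries, Amh had 10 and 22 counts and Dhh 5 and 1. Markers of visceral endoderm summed to 1883 and 3241 CPM in the SCLC libraries, against 7.40 to 13.2 CPM in the ESC libraries, and gonadal stroma markers to 972 and 985 CPM, against 6.49 to 7.52. The part of these cells in the SCLC levels given below was not tested. These are bulk samples, so that fewer cells of a type and less RNA per cell cannot be told apart.

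Sequences from just upstream of the genes, or around a motif in their promoter windows, are shown for 4 of those that the results turn on, so that their position and neighbours can be read beside the values. RefSeq windows of 300 bases (250 before and 50 after the start, GRCm38.p6) were held for 6 of the 8 genes, without Wt1 and Dmrt1. In Cited2, a transcriptional co-regulator that binds p300/CBP, the 240 bases before the gene are chr10:17722978-17723217 on the plus strand, with an E-box (CACGTG) in capitals.
Cited2: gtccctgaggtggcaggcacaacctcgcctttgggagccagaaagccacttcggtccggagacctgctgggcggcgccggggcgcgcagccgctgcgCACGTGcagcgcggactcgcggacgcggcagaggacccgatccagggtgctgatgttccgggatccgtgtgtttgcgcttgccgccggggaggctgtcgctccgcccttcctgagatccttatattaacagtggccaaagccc
In Map3k4, on the minus strand, the 114 bases before the gene are chr17:12318797-12318910, and the capitals mark the 56 bases that lie between its start and that of the divergent long non-coding RNA 4732491K20Rik.
Map3k4: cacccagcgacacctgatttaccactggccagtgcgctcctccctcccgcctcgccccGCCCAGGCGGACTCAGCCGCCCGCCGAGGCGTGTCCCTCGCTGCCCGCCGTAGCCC
Shorter stretches hold the matches in the windows of Emx2 (chr19:59458716-59458739, plus strand, capitals for the homeodomain site TAATTA) and Six4 (chr12:73113326-73113354, minus strand, capitals for the reverse complement of TCAGGTTTC, a site of Six4 and its relatives).
Emx2: atccccgcacTAATTAggctcatg
Six4: tggcctggggGAAACCTGAtcggccagat
Searched on both strands, TAATTA was in 5.29%, TCAGGTTTC in 0.429% and CACGTG in 7.15% of the 32851 windows of all genes. The Fgf9 window held 1 GATA site (AGATAA, in 11.2% of windows). The NR5A site CAAGGTCA, which SF1 can bind, was in 1.56% of all windows and in no window of the 6 genes, and neither were the WT1 site GCGGGGGCG (2.91%), the DM site core ACATTGT (2.96%) and the SOX site ACAATGG (3.66%). The windows of Lhx9 and Map3k4 and the more upstream of the windows of Six4 held no match to any of the 8 motifs. These matches describe letters in the windows and are not binding sites shown by these data.

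Emx2, Cited2 and Map3k4 were at their highest in SCLCs, Wt1, Dmrt1 and Six4 were at their highest in tod-PGCLCs, and Lhx9 and Fgf9 lay close to the limit of measurement in every group. Compared per exon length (as TPM, the level corrected for the length of the gene's exons), the order of the mean levels in SCLCs was Cited2 at 469, Map3k4 at 56.9, Dmrt1 at 35.8, Emx2 at 15.7, Six4 at 4.97, Wt1 at 0.936, Fgf9 at 0.132 and Lhx9 at 0.0710 TPM. Among these neighbours, the libraries of Dmrt1 (52.1 and 19.6 TPM) and Emx2 (12.7 and 18.8 TPM) came close to one another, and those of Fgf9 and Lhx9 rest on at most 7 counts. In tod-PGCLCs Dmrt1 led with 155 TPM, followed by Cited2 with 114, Map3k4 with 41.5, Six4 with 36.1 and Wt1 with 6.78 TPM. In both kinds of ESCs Cited2, Map3k4, Six4 and Dmrt1 came first in that order. The libraries of Six4 (21.9 and 20.8 TPM) and Dmrt1 (18.7 and 20.6 TPM) in tcESCs differed by little more than their own spread, and so did those of Map3k4 (24.4 and 23.3 TPM) and Six4 (23.0 and 23.2 TPM) in tc;Sf1ESCs.

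**Figure D1:**
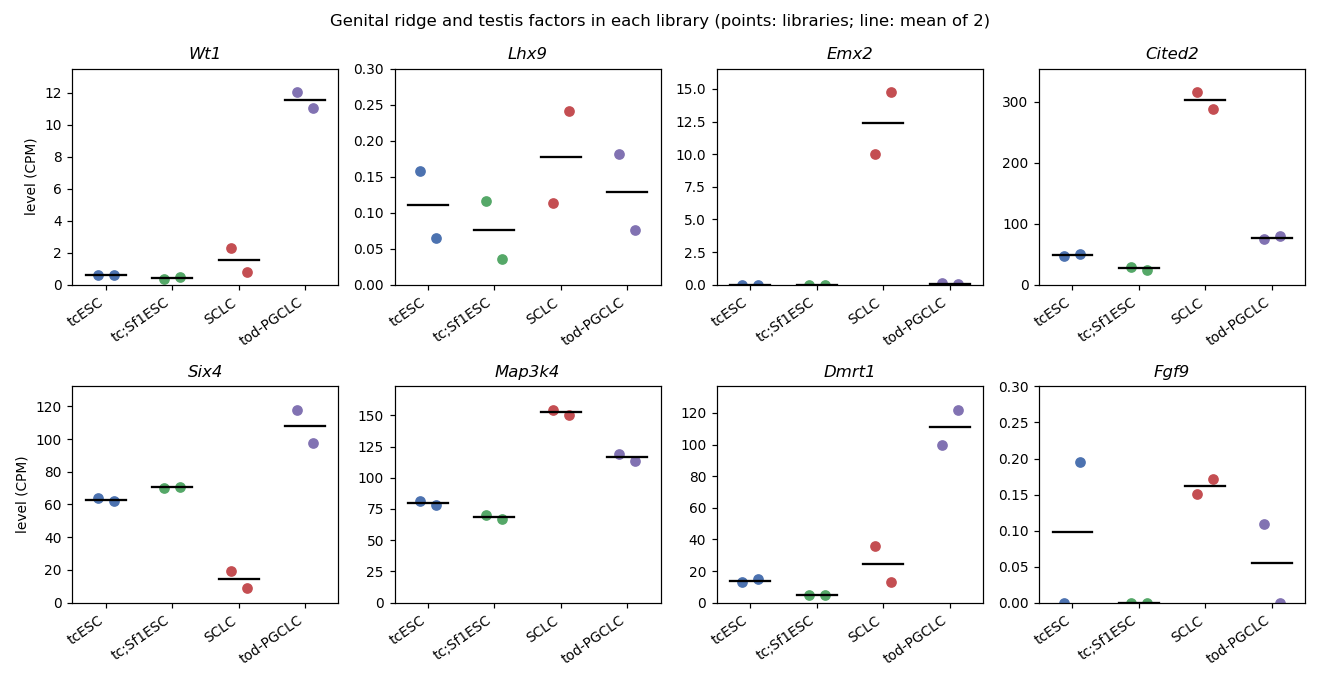
Level of each of the 8 genes in CPM (vertical axis, linear from 0, scaled to each gene) in the 4 groups, with points for the 2 libraries and a line for their mean. Emx2, Cited2 and Map3k4 are highest in SCLCs, Wt1, Six4 and Dmrt1 in tod-PGCLCs, and Lhx9 and Fgf9 stay under 0.3 CPM in every library.

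Of the genes that build the ridge, Emx2 (chr19:59458372-59465357), a homeobox gene of the coelomic epithelium and the urogenital tract, showed the largest difference. It had 0 counts in all 4 ESC libraries, 266 and 430 counts in SCLCs, and 3 and 1 counts in tod-PGCLCs. Both SCLC libraries thus stood far above every other library, and the ESC libraries held no read of it. The SCLC level was 12.4 ± 3.35 CPM (SD, n = 2), at least 115-fold higher than the tcESC level and at least 111-fold higher than that of tc;Sf1ESCs, with the ESC libraries set at 3 counts each. Emx2 passed the filter on low counts only through its SCLC libraries, so that its calls in these comparisons add nothing to the counts. Here and below, a gene was called with a fold change above 2 and an adjusted p under 0.05 in edgeR's quasi-likelihood fit (Benjamini-Hochberg over all genes of the fit). The antisense RNA Emx2os had 11 and 21 counts in SCLCs, 0 in the ESC libraries, and 3 and 0 in tod-PGCLCs. Exons of the pair overlap, and without the strand setting of the counting, reads from the overlap cannot be told apart.

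Cited2 (chr10:17723218-17725674), a co-regulator that raises Nr5a1 in the adrenogonadal primordium together with Wt1, had 47.7 and 50.3 CPM in tcESCs, 29.4 and 24.8 in tc;Sf1ESCs, 317 and 289 in SCLCs, and 74.4 and 79.9 in tod-PGCLCs. The SCLC libraries lay far above all others, and the tc;Sf1ESC libraries lay below all others. Its log2 fold change was 3.53 (SE 0.0995, edgeR adjusted p = 3.24e-07) in SCLCs over tc;Sf1ESCs and 2.69 (SE 0.0948, edgeR adjusted p = 7.12e-07) in SCLCs over tcESCs. In tc;Sf1ESCs it stood 1.80-fold below tcESCs (log2 fold change -0.85, edgeR adjusted p = 0.000929), under the 2-fold limit for a call. Its relative Cited1 was higher in SCLCs too, at 104 and 223 CPM against 3.82 and 3.79 CPM in tc;Sf1ESCs, whereas Cited4 was not called there.

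Wt1 (chr2:105126529-105173616), a zinc finger factor of the coelomic epithelium, kidney and Sertoli cells, was low in ESCs and SCLCs. It had 15 and 19 counts in tcESCs, 9 and 13 in tc;Sf1ESCs and 60 and 23 in SCLCs, against 332 and 293 in tod-PGCLCs. SCLC replicate 1 stood at 2.26 CPM and replicate 2 at 0.791 CPM, so that replicate 2 lay only a little above the tcESC libraries at 0.590 and 0.619 CPM. Wt1 was called higher in SCLCs over tc;Sf1ESCs (log2 fold change 1.92, SE 0.557, edgeR adjusted p = 0.0163) and over tcESCs (1.38, SE 0.522, edgeR adjusted p = 0.0461). Neither call held without SCLC replicate 1, where the log2 fold changes were 1.01 (edgeR adjusted p = 0.0584) and 0.46 (edgeR adjusted p = 0.351), nor when a library of the ESC group compared was left out. DESeq2 gave an adjusted p of 0.0765 against tcESCs.

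Lhx9 (chr1:138825186-138848577), a LIM homeobox gene needed for the ridge epithelium to grow, was near the limit of measurement throughout. It had 4 and 2 counts in tcESCs, 3 and 1 in tc;Sf1ESCs, 3 and 7 in SCLCs, and 5 and 2 in tod-PGCLCs. All groups overlapped, and at 10 against 4 counts the ratio of SCLCs to tc;Sf1ESCs was 2.41 with a 95% counting interval of 0.695 to 10.5. A change in Lhx9 was therefore not detectable at this depth, and its level was at most 0.241 CPM in any library.

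Six4 (chr12:73099609-73113456), a homeobox gene that acts on precursor cell number and on Nr5a1, went the other way. It had 63.9 and 61.9 CPM in tcESCs, 70.2 and 71.0 in tc;Sf1ESCs, 19.4 and 9.04 in SCLCs, and 118 and 97.4 in tod-PGCLCs. Both SCLC libraries lay below every other library and both tod-PGCLC libraries above every other. In SCLCs it was called lower than in tc;Sf1ESCs (log2 fold change -2.27, SE 0.287, edgeR adjusted p = 0.000284) and tcESCs (-2.09, SE 0.286, edgeR adjusted p = 0.00043), and without SCLC replicate 1 these values were -2.90 and -2.72, both called. Not all of its relatives moved with it. Six2, Six3 and Six5 were called higher in SCLCs over tc;Sf1ESCs by 2.53, 2.20 and 2.06 on the log2 scale. Eya1, a cofactor of these proteins, was called lower (-4.21). Of all genes tested there, 24.1% were called higher and 18.1% lower. Six3 passed the filter on low counts only through its SCLC libraries.

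On the side of Sry activation, Map3k4 (chr17:12227621-12318796) varied little between the libraries of a group. It had 81.1 and 78.5 CPM in tcESCs, 69.9 and 66.8 in tc;Sf1ESCs, 155 and 150.0 in SCLCs, and 119 and 113 in tod-PGCLCs. None of the 4 groups overlapped another. In SCLCs it was called higher than in tc;Sf1ESCs (log2 fold change 1.21, SE 0.0623, edgeR adjusted p = 3.39e-06), and over tcESCs it stood at 0.996 (SE 0.0618, edgeR adjusted p = 7.79e-06), just under the 2-fold limit and so not called. The divergent RNA 4732491K20Rik starts 57 bases away on the other strand. It had 6 and 4 counts in tc;Sf1ESCs and 44 and 73 in SCLCs (log2 fold change 3.50, SE 0.416, edgeR adjusted p = 0.000203). This RNA passed the filter on low counts only through its SCLC libraries, so that the value is a description. Its exons do not overlap those of Map3k4. Gadd45g, which acts upstream of Map3k4, had 0.463 and 0.397 CPM in tc;Sf1ESCs and 36.0 and 27.2 CPM in SCLCs (log2 fold change 6.24, edgeR adjusted p = 2.36e-06).

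Fgf9 (chr14:58070547-58112720), the secreted factor that sustains Sox9, had 0 and 6 counts in tcESCs, 0 and 0 in tc;Sf1ESCs, 4 and 5 in SCLCs, and 3 and 0 in tod-PGCLCs. The highest library reached 0.196 CPM, in tcESCs, so that the SCLC counts do not stand above all ESC libraries. SCLCs were 1.44-fold higher than tc;Sf1ESCs when the latter, which were at 0, were set at 3 counts each. That value takes the 4 and 5 SCLC counts as exact, so that it is no firm lower bound. When every gene with at least 1 count was tested, Fgf9 passed in that comparison (edgeR adjusted p = 0.0233) and in none of the other 4. FGF9 protein was added to the SCLC culture, and RNA counts do not measure it. Its receptor Fgfr2 had 3.59 and 3.87 CPM in tc;Sf1ESCs and 62.4 and 87.0 CPM in SCLCs (log2 fold change 4.37, edgeR adjusted p = 1.54e-06), Fgfr3 and Fgfr4 were also called higher there (6.94 and 4.32), and Fgfr1 was called lower (-1.60). Of the genes that report FGF signalling, Etv4, Etv5, Spry2 and Spry4 were called lower in SCLCs than in tc;Sf1ESCs (-1.12, -2.72, -2.06 and -1.24), and Spry1 and Dusp6 were not called. Beside these, 24.1% of all genes were called higher and 18.1% lower, and Fgfr3 passed the filter only through its SCLC libraries. PD0325901 was in the ESC medium and FGF9 in the SCLC medium, and their part in these differences was not tested.

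Dmrt1 (chr19:25505618-25604329), a DM domain factor of Sertoli and germ cells, had 13.1 and 14.7 CPM in tcESCs, 5.13 and 4.59 in tc;Sf1ESCs, 35.7 and 13.3 in SCLCs, and 99.8 and 122 in tod-PGCLCs. SCLC replicate 2 lay within the tcESC libraries and replicate 1 well above them. Dmrt1 was called higher in SCLCs than in tc;Sf1ESCs (log2 fold change 2.38, SE 0.431, edgeR adjusted p = 0.00181), and without SCLC replicate 1 the value was 1.52 and still called. Over tcESCs it was 0.88 (SE 0.396, edgeR adjusted p = 0.0813) and not called, with values of 1.41, called, without SCLC replicate 2 and 0.02 without replicate 1. The lower level in tc;Sf1ESCs than in tcESCs was called (log2 fold change -1.50, SE 0.432, edgeR adjusted p = 0.036). When any of the 4 libraries was left out the call was lost, with values from -1.58 to -1.42. Of 9 other settings 8 kept it, among them DESeq2 (adjusted p = 0.000934), and the test against a 2-fold change did not.

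In tc;Sf1ESCs over tcESCs, Dmrt1 was the 1 gene called of the 6 tested, where 11.7% of all 16481 genes tested were called (6.04% higher and 5.62% lower). The 2 libraries of the groups did not overlap for 5 of the 6, as for 76.3% of all genes. None of the 6 was called higher in the clone that carries the Sf1 transgene. In SCLCs over tcESCs, Emx2, Cited2 and Wt1 were called higher and Six4 lower, beside 42.7% of all genes called (24.3% higher and 18.3% lower), and libraries did not overlap for 5 of the 6, against 85.7% of all genes. In SCLCs over tc;Sf1ESCs, the starting line of the culture, all 6 were called, Emx2, Cited2, Dmrt1, Wt1 and Map3k4 higher and Six4 lower, beside 42.2% of all genes (24.1% higher and 18.1% lower), and no libraries overlapped, as for 86.5% of all genes. The 2 SCLC comparisons share the SCLC libraries. Emx2 entered these tests only through its SCLC counts, and Lhx9 and Fgf9 were under the filter of a mean count above 10.

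**Figure D2:**
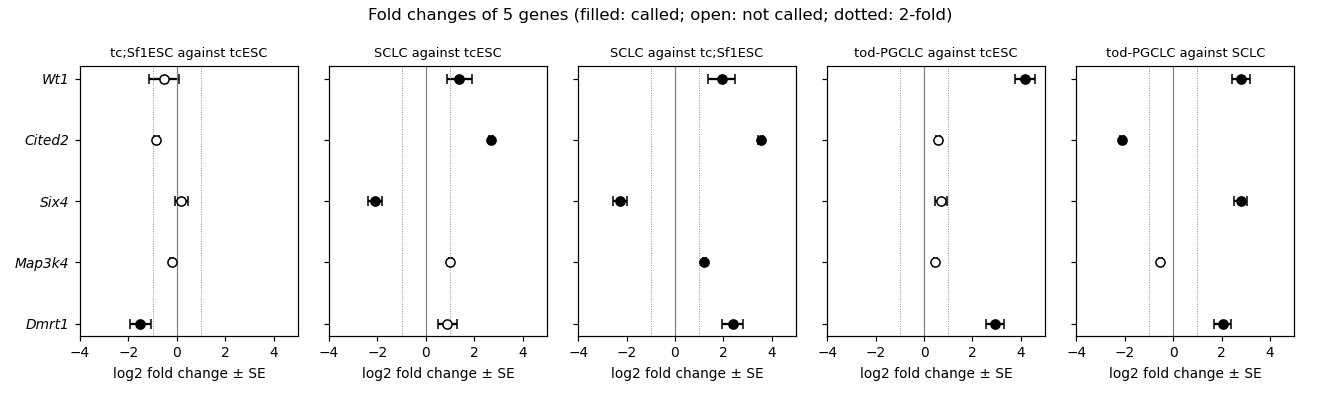
Log2 fold changes (horizontal axes) with their SE for 5 of the genes in the 5 comparisons, filled where called and open where not, with dotted lines at a 2-fold change (an SE smaller than its symbol is hidden behind it). Cited2 and Six4 move in opposite directions in SCLCs, and Wt1 and Dmrt1 have their largest values in tod-PGCLCs over tcESCs. Emx2 is left out, since its ESC libraries were at 0.

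The libraries of tod-PGCLCs held the highest levels of Wt1, Dmrt1 and Six4. Wt1 reached 12.1 and 11.0 CPM, all far above the ESC and SCLC libraries, with a log2 fold change of 4.17 over tcESCs (SE 0.421, edgeR adjusted p = 4.86e-05) and 2.80 over SCLCs (SE 0.375, edgeR adjusted p = 0.000167). Dmrt1 stood 2.92 above tcESCs (SE 0.367, edgeR adjusted p = 0.000166) and 2.05 above SCLCs (SE 0.351, edgeR adjusted p = 0.000737) on the log2 scale. Six4 was 2.80 higher than in SCLCs (SE 0.271, edgeR adjusted p = 2.28e-05), and 0.70 higher than in tcESCs (edgeR adjusted p = 0.0334), which is under 2-fold. Without SCLC replicate 1, the values over SCLCs were 3.72 for Wt1, 2.91 for Dmrt1 and 3.43 for Six4, and without SCLC replicate 2 that of Wt1 was 2.21, all called.

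Against tcESCs, Wt1 and Dmrt1 were the 2 genes called in tod-PGCLCs, both higher, where 29.4% of all 16707 genes tested were called (18.1% higher and 11.2% lower), and libraries did not overlap for 83.7% of all genes. Cited2 (0.58) and Map3k4 (0.47) stood above tcESCs with an edgeR adjusted p of 0.000548 and 0.000246, and neither reached 2-fold. Emx2, with 3 and 1 counts against 0 and 0, was at or under the limit of measurement in both groups. Against SCLCs, Wt1, Dmrt1 and Six4 were called higher and Emx2 and Cited2 lower, beside 38.0% of all genes (18.5% higher and 19.5% lower), and Map3k4 was not called (-0.52). Libraries did not overlap for all 6, as for 83.3% of all genes. Emx2 entered this fit, too, only through its SCLC counts. The Emx2 level of SCLCs was 169 times that of tod-PGCLCs, with a 95% counting interval of 65.8 to 623. That ratio rests on 4 counts in tod-PGCLCs, and the fitted log2 value of -7.44 became -8.32 without tod-PGCLC replicate 1. The levels of Cited2 were 77.1 ± 3.86 CPM in tod-PGCLCs and 303 ± 19.7 CPM in SCLCs (SD, n = 2).

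Markers of other cells move with these values in tod-PGCLCs. Germ cell markers, all 8 above 3 counts, summed to 836 and 839 CPM there, against 144 to 372 CPM in the other libraries. Sertoli markers summed to 55.4 and 52.5 CPM in tod-PGCLCs, against 12.2 to 14.6 CPM in ESCs and 487 and 521 CPM in SCLCs, gonadal stroma markers to 31.7 and 34.4 CPM, against 6.49 to 7.52 CPM in ESCs, and visceral endoderm markers to 28.0 and 40.7 CPM, against 7.40 to 13.2 CPM in ESCs. Over tcESCs, 5 of 8 germ cell markers, 3 of 9 Sertoli markers, 3 of 5 gonadal stroma markers and 7 of 10 visceral endoderm markers tested were called higher and none lower, where 18.1% of all genes were called higher and 11.2% lower. Kidney progenitor markers had 3 of 6 called higher and 1 lower, and trophectoderm and neural markers each had 2 of 5 higher and 1 lower. Pregranulosa markers had 1 of 3 higher and 1 lower, and pluripotency markers 0 of 7 higher and 3 lower. None of 3 steroidogenic markers was called. The part of all these cells in the Wt1, Dmrt1 and Six4 levels was not tested. Wt1os, the antisense neighbour of Wt1 that starts 19 bases away, had 6 and 6 counts in tod-PGCLCs and at most 2 in any other library.

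The genes differed in how well the 2 SCLC libraries matched. Wt1, Dmrt1 and Six4 were 2.86, 2.68 and 2.14 times higher in SCLC replicate 1 than in replicate 2, and only 2.16%, 2.65% and 6.02% of the 16217 genes compared differed more between these libraries. Cited2 and Map3k4 were 1.10 and 1.03 times as high, and Emx2 was 1.47 times higher in replicate 2. In the other 3 groups the largest ratio between replicates among the 6 genes, where the mean count was above 10, was 1.35, for Wt1 in tc;Sf1ESCs. Several groups of markers were also higher in replicate 1, among them 6 of 7 pluripotency markers (median ratio 1.53) and 7 of 8 germ cell markers (2.11). So were 3 of 4 neural markers (1.88) and 4 of 5 gonadal stroma markers (1.40). Pluripotency markers ran from Klf4 at 0.997 to Nanog at 3.26 times, with Sox2 at 2.89. Germ cell markers ran from Tfap2c at 0.748 to Dppa3 at 3.25 times, with Dazl at 2.65. Summed pluripotency markers were 823 and 590 CPM in SCLC replicates 1 and 2, germ cell markers 222 and 144 CPM, and visceral endoderm markers 1883 and 3241 CPM, 8 of 10 of them higher in replicate 2. Of the Sertoli markers 4 of 9 were higher in replicate 1, with Aard at 3.52 and Cldn11 at 3.47 times, and none of 5 trophectoderm and 4 steroidogenic markers was. ESC libraries had 4571 to 5121 CPM of pluripotency markers. The part of these cells in the Wt1, Dmrt1 and Six4 levels of SCLCs was not tested.

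**Figure D3:**
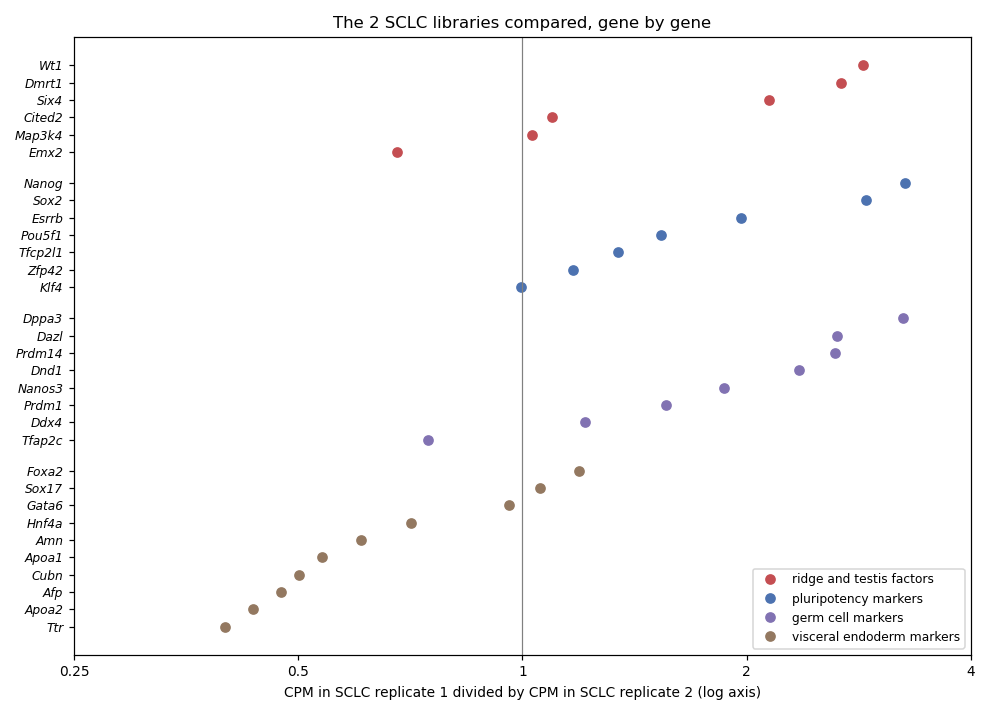
Ratio of the level in SCLC replicate 1 to that in replicate 2 (horizontal log axis) for 6 of the genes and for markers of pluripotent cells, germ cells and visceral endoderm, 1 point a gene. Wt1, Dmrt1 and Six4 lie above 2, and Emx2 lies at 0.679. Pluripotency markers span 0.997 (Klf4) to 3.26 (Nanog), and germ cell markers span 0.748 (Tfap2c) to 3.25 (Dppa3). Visceral endoderm markers span 0.399 to 1.19.

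The other genes of the pathway were read from the same fits. Of 8 other genes of ridge formation, 5 were tested and 4, among them Nr5a1 with its transgene, were called higher in SCLCs over tc;Sf1ESCs and none lower, where 24.1% of all genes were called higher and 18.1% lower. Gata4, which starts the thickening of the ridge, rose most (6.05, from 6.60 and 6.65 CPM to 415 and 431 CPM), followed by Pax2 (4.58), Nr5a1 (3.39) and Pax8 (2.50), Pax2 and Pax8 being genes that pattern the nephric lineage. Numb (0.67) was not called. Pax2 and Pax8 passed the filter only through their SCLC libraries, and the count of 4 is no support for the list. The intermediate mesoderm genes Osr1 (31 and 17 counts in SCLCs, 0 in ESCs) and Lhx1 (13 and 28 counts) and Tcf21 (10 and 6 counts) were under the filter. Nr5a1 counts include those of the transgene, from which they cannot be told apart.

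Of 12 genes that act on Sry, 10 were tested, with 3 called higher and 4 lower in SCLCs over tc;Sf1ESCs, beside 24.1% and 18.1% of all genes. Gadd45g, Insr (2.04) and Igf1r (1.04), the latter pair being insulin family receptors needed for male sex determination, were called higher. Zfpm2, the cofactor of Gata4, was called lower (-3.55, from 68 and 87 to 5 and 8 counts), as were the Polycomb gene Cbx2 (-1.09) and the p38 pathway genes Map2k6 (-1.08) and Mapk11 (-1.77). Map2k3, Mapk14 and Kdm3a were not called. Sry itself had 0 counts in all 8 libraries, which allows a level of up to 0.0978 to 0.118 CPM a library.

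Downstream of Sry, 5 of 8 genes were tested. Sox9, the gene whose enhancer drives the CFP used in the sort, had 7 and 0 counts in tc;Sf1ESCs and 206 and 130 in SCLCs (5.54, edgeR adjusted p = 0.000366), and 68 and 132 in tod-PGCLCs, which were sorted without it. Fgfr2 was called higher as given above, Nr0b1, which opposes Sry and is also high in ESCs, was called lower (-4.60), and Amh (-0.36) and Sox8 (0.99) were not called. Over the 3 lists, 9 of the 20 genes tested were called higher and 5 lower, with a median log2 fold change of 0.83 against 0.02 over all genes tested, of which 24.1% were called higher and 18.1% lower. In tc;Sf1ESCs over tcESCs, 2 were called higher (Nr5a1 and Gata4) and 1 lower (Gadd45g) of 20, a share near the 11.7% of all genes called. In SCLCs over tcESCs 8 were called higher and 7 lower, and in tod-PGCLCs over tcESCs 9 higher and 2 lower of 22 tested, beside 42.7% and 29.4% of all genes called. Sox9, like Pax2 and Pax8, passed the filter of the 6 libraries only through SCLCs, and Lhx1 that of the 8 libraries only through tod-PGCLCs.

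**Figure D4:**
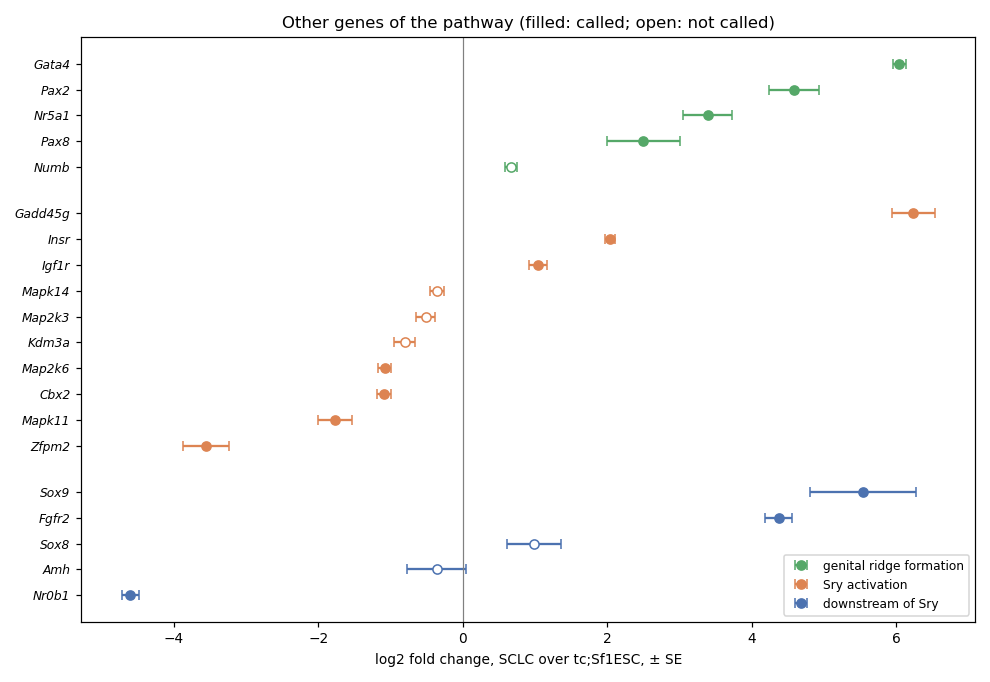
Log2 fold change of SCLCs over tc;Sf1ESCs with its SE (horizontal axis) for the other tested genes of ridge formation, Sry activation and the steps downstream of Sry, filled where called. Gata4 and Gadd45g lie near 6, and Nr0b1 and Zfpm2 are the lowest.

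Of 7 genes of the ovarian side, 6 were tested, and 3 were called higher in SCLCs over tc;Sf1ESCs and none lower, where 24.1% of all genes were called higher and 18.1% lower. Over tcESCs 3 were called higher and 1 lower, beside 24.3% and 18.3% of all genes. Wnt4 passed the filter only through its SCLC libraries. Those higher over tc;Sf1ESCs were Runx1 (8.22), a gene of pre-granulosa cells that is also used in blood and epithelia, Wnt4 (4.71), which opposes Fgf9, and the activin inhibitor Fst (1.88). Foxl2, the factor that defines granulosa cells, had at most 8 counts in any library. Of 22 relatives and cofactors of the 8 genes, 16 were tested, with 9 called higher and 2 lower in SCLCs over tc;Sf1ESCs against the same shares of all genes (Six3 and Dmrtb1 passed the filter only through their SCLC libraries), Dmrta2 (1.78), Dmrtb1 (1.97) and Gadd45b (1.76) among the former.

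Among 14291 genes whose mean reached 1 CPM, the log2 CPM profile over the 8 libraries nearest to that of each tested gene, by Euclidean distance after centring, was that of Ric1 for Map3k4 (0.145), Cln6 for Cited2 (0.311), Cpne5 for Six4 (0.370), Dbx2 for Wt1 (0.480), Nlrp9b for Dmrt1 (0.757) and Gm15418 for Emx2 (0.869). The next nearest were Slc35a3, Tril, Zfp750, Ccdc172, Dact1 and Ctsj. The profiles share the same 8 libraries, so that this is a description. Cln6 had 12.0 ± 0.315 CPM in tc;Sf1ESCs and 139 ± 4.47 CPM in SCLCs (SD, n = 2), and Gm15418 0.0181 and 14.8 CPM.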

How the data were processed

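Poly-A RNA of 8 libraries was sequenced as strand-specific paired-end reads. The authors trimmed the reads and aligned them to GRCm38, and deposited raw counts of reads per Ensembl gene ID for each library, without normalization; the submitters' processing notes name Trim Galore, STAR 2.4.0, HTSeq, Picard and DESeq2. The gene annotation and the strand setting of the counting are not given in the sources used here. Rows that name no gene (ambiguous, not unique, not aligned, no feature) were 35.6% to 41.6% of the reads and were left out. Of 46078 IDs, 45229 were named with GENCODE M21, which also gave positions and exon lengths.

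Tests were run with edgeR 4.0.16 under R 4.3.3 (TMM, quasi-likelihood test, Benjamini-Hochberg adjustment), in a fit of 6 libraries (16481 genes with a mean count above 10) or, for tod-PGCLCs, of all 8 (16707 genes). P-values rest on a spread estimated over all libraries of a fit together, with 2 libraries a group. The scatter between SCLC libraries thus enters the p-values of tc;Sf1ESCs over tcESCs as well. CPM used library totals. Intervals and limits account only for counting error, as reads carry no molecular identifiers that would mark PCR copies. The genes and lists were chosen with earlier results of these data known. Some genes of the lists are not reported here and are left out of their counts. Named beside them were the genes of 3 pathway lists that were called in SCLCs over tc;Sf1ESCs, neighbours within 5000 bases, and the 2 nearest profiles of each gene; genes of the FGF, ovarian and relatives lists and the genes compared between the SCLC replicates were picked after their values were seen. Alternatives were RLE size factors, library totals, other filters, DESeq2 1.42.0, a test against a 2-fold change, other libraries in the fit, a replicate block and each library left out.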

Additional observations from a re-analysis of the deposited data

How the results depend on the processing

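Of 353 values recomputed for single genes, 333 kept their direction and their side of the threshold, 17 lost the call, 3 gained it and none reversed. Cited2 and Six4 kept their calls in SCLCs over both kinds of ESCs under every alternative run. The count of the 8 genes called in tc;Sf1ESCs over tcESCs, 1 in the report, was 0 in the test against a 2-fold change and 0 with any 1 of the 4 libraries left out. All genes called there numbered 594 in the test against a 2-fold change and 1119 to 1240 with a library left out, against 1922, and the genes of the pathway lists 5 with only the 4 libraries compared, against 3. In tod-PGCLCs over tcESCs the test against a 2-fold change called 3078 genes, against 4906, and 6 pathway genes, against 11. Wt1 in SCLCs over tcESCs had an adjusted p of 0.0543 with library totals, 0.05004 with filterByExpr, 0.0765 with DESeq2, 0.285 in the test against a 2-fold change and 0.0726 with 4 libraries, and over tc;Sf1ESCs 0.0909 in the test against a 2-fold change. Map3k4 in SCLCs over tcESCs passed the 2-fold limit without tcESC replicate 1 (1.02) or SCLC replicate 2 (1.01). The cause was not tested, and the smaller fits hold fewer libraries. Same-numbered libraries share only a number (correlations of their differences from -0.0261 to 0.0618), and the replicate block changed no call of a member, with Dmrt1 at an adjusted p of 0.0192 in tc;Sf1ESCs over tcESCs. At these depths, no change of Lhx9 or Sry was detectable, and Fgf9 rests on at most 6 counts a library.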
